A study of Mus musculus with 6 samples.

Results

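Histone genes were selected from the count table by symbol. Of 55571 entries, 92 had a symbol starting with Hist1h to Hist4h, H1f, H2af, H2bf or H3f. The 70 Hist-prefixed genes carry the clustered histone genes and are called Hist-prefixed here, and the 22 others carry the replacement and other variant histones. RNA was sequenced from E0771, a mouse mammary carcinoma cell line, expressing wild-type Malt1 (Malt1-WT, 3 libraries) or carrying the vector control (3 libraries), with no stimulus named in either group. Malt1 encodes a paracaspase that works as scaffold and protease upstream of NF-kB. No promoter for the introduced Malt1, and no word on whether the cells were a clone or a pool, is given in the sources used here. The comparison asks how histone transcripts differed once Malt1 was introduced.

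Chromatin is built on octamers of the core histones H2A, H2B, H3 and H4, with the linker histone H1 at the entry and exit of the DNA. The clustered genes are replication-dependent: their mRNAs are made in S phase, when new DNA has to be packaged, and most end in a conserved stem-loop rather than in a poly(A) tail. The protein Slbp binds that stem-loop and carries the mRNA through 3′ end cleavage, translation and decay. Variants such as H2A.Z, H2A.X, macroH2A and the replacement H3 histones are mostly made from separate polyadenylated mRNAs and can be deposited outside S phase. No source used here gives whether the RNA was selected on poly(A) or depleted of ribosomal RNA. The counts of stem-loop mRNAs may therefore hold only part of their molecules.

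The stem-loop is the feature that separates the mRNAs of the classes, so it was searched in the GENCODE M21 transcripts of build GRCm38. The pattern was 16 bases with a stem of 6 base pairs and a loop of 4 bases, within 200 bases after the coding sequence. It was found in 46 of 67 protein-coding Hist-prefixed genes, which is 88.5% of the 52 with an annotated 3′ UTR of at least 16 bases. It was also found in 2 of 16 protein-coding variants, H2afx and H2bfm, and in 0.32% of 20966 protein-coding genes. The 5 lines below show the stem-loops of genes whose values are given further on, written as DNA on the strand of the gene, with the 16 bases of the stem and loop in capitals.

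Hist1h1c, chr13:23739507-23739532, plus strand: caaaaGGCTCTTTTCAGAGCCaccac
Hist1h2bb, chr13:23747198-23747223, plus strand: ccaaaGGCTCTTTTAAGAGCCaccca
Hist1h3d, chr13:23576239-23576264, plus strand: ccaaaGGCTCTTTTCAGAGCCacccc
Hist1h4j, chr13:21735432-21735457, plus strand: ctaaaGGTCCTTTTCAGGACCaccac
H2afx, chr9:44335235-44335260, plus strand: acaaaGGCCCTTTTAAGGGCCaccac

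The commonest 16 bases, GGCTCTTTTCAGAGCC, stood in 27 of the histone genes with a match and are those of Hist1h1c and Hist1h3d above. H2afx, a variant gene, has a stem-loop with another stem, and its annotated transcript runs on for 822 bases past it to a poly(A) signal (AATAAA or ATTAAA in the last 50 bases). This is not particular to the variant. The annotated transcripts of Hist1h1c and Hist1h4j also run on past the stem-loop to such a signal, for 840 and 385 bases. Hist1h2bb and Hist1h3d had no such signal. Such a signal was found in 11 of 16 protein-coding variants and 17 of 67 protein-coding Hist-prefixed genes.

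Library totals lay between 17601656 and 20543778 counts. Malt1, the check of the labels, had counts of 5526, 6176 and 5087 in Malt1-WT and 517, 633 and 611 in the vector control (log2 fold change 3.34). Of 13594 genes tested by the edgeR quasi-likelihood test, 61.2% were called changed at an adjusted p under 0.05, with 30.2% lower and 31.0% higher in Malt1-WT, and the median log2 fold change was -0.003. Among the epithelial markers of a carcinoma line, Krt8 averaged 59.7 CPM (counts scaled by TMM to a fixed library total) in Malt1-WT and 68.6 CPM in the vector control, while Krt18 and Cdh1 stayed below 1 CPM in both groups. Epcam averaged 6.23 CPM in Malt1-WT and 6.31 CPM in the vector control, and its libraries overlapped. The mesenchymal filament gene Vim averaged 1658 CPM in Malt1-WT and 3087 CPM in the vector control. Of 5 leukocyte markers, Tyrobp was at 0 in all libraries, and their summed level was 1.01 to 1.58 CPM in Malt1-WT and 3.03 to 4.72 CPM in the vector control, most of it Lyz2. The 3 endothelial markers summed to 10.2 to 10.8 CPM in Malt1-WT and 4.58 to 5.70 CPM in the vector control, most of it Pecam1. The part of these cells, if present, in the histone values was not tested.

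Hist-prefixed genes were lower in Malt1-WT. Of the 16 that passed the filter on low counts, 13 were called lower, against 30.2% of all tested genes, and 0 were called higher by edgeR or DESeq2, as all 16 log2 fold changes were below 0. At least a 2-fold decrease was seen for 10 of them, against 4.77% of all tested genes. Their median log2 fold change was -1.25, with a range of -2.28 to -0.50. In 15 of 16 all 3 Malt1-WT libraries lay below all 3 vector control libraries, which held for 32.0% of all tested genes. Of the 16, 10 reached the filter's level of 0.526 CPM in all 3 vector control libraries but not in all 3 Malt1-WT libraries. Entry in this way favours genes that are lower in Malt1-WT, so these counts and the median are a description and no support. The 5 that reached it in all libraries of both groups, Hist1h1c, Hist1h2ae, Hist1h2bc, Hist1h2be and Hist2h2be, were all called lower. No test between Hist-prefixed genes and the rest was made. In bulk RNA, fewer cells in S phase and less histone mRNA in each such cell cannot be told apart.

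The linker histone gene Hist1h1c (chr13:23738808-23740367, plus strand, GRCm38) was the most abundant Hist-prefixed gene in counts. It had 7.22, 8.44 and 5.79 CPM in Malt1-WT libraries, against 26.2, 32.5 and 29.3 CPM in vector control libraries. The groups were far apart, with a difference of -2.03 on the log2 scale (SE 0.10, edgeR quasi-likelihood adjusted p = 3.26e-23). Hist1h1a, another linker histone gene, had 0.448, 0.699 and 0.936 CPM in Malt1-WT and 2.15, 1.57 and 1.74 CPM in the vector control. It fell by 1.38 on the log2 scale (SE 0.34, edgeR quasi-likelihood adjusted p = 4.11e-04), with the limit of the filter given above. Hist1h1e had 0.559, 0.0999 and 0.409 CPM in Malt1-WT and 0.221, 0.589 and 0.647 CPM in the vector control. It is the 1 tested Hist-prefixed gene whose groups overlapped, and its difference did not pass the test (log2 fold change -0.50, SE 0.54, edgeR quasi-likelihood adjusted p = 0.445). Exons of other genes on the same strand, the long Hist1h2be transcript among them, cover 25.7% of its exon bases. For Hist1h2be such overlap is 11.2%. Reads in the part that this pair shares cannot be assigned with certainty. Of the others, Hist1h1d had 11 counts over the 3 Malt1-WT libraries and 26 over the 3 vector control libraries, and the testis gene Hist1h1t was at 0.

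**Figure D1:**
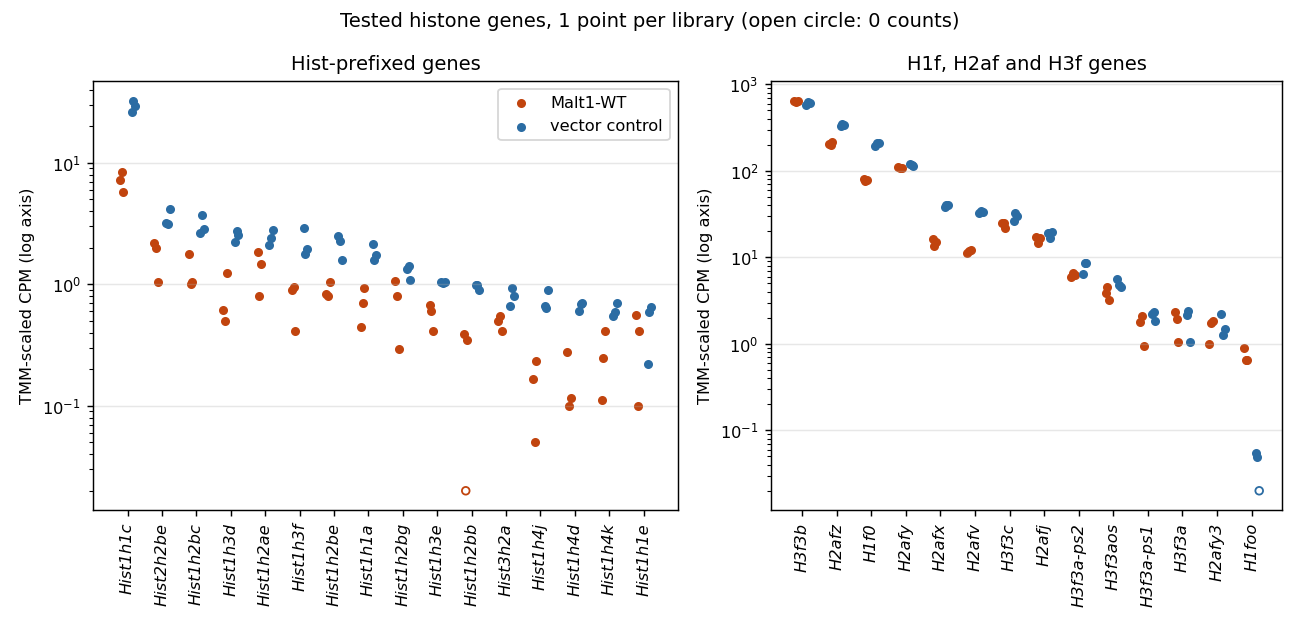
TMM-scaled CPM on a log axis for each tested histone gene, 1 point per library, with Malt1-WT left of the vector control and open circles for libraries with 0 counts. Among Hist-prefixed genes the groups overlap only for Hist1h1e, and Hist1h1c stands above the others in both groups. Among H1f, H2af and H3f genes, H1f0, H2afx, H2afv and H2afz stand clearly lower in Malt1-WT.

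Among H2A genes, which pair with H2B in the nucleosome, 2 of 20 could be tested. Hist1h2ae had 1.85, 0.799 and 1.46 CPM in Malt1-WT and 2.10, 2.41 and 2.79 CPM in the vector control, a log2 fold change of -0.85 (SE 0.28, edgeR quasi-likelihood adjusted p = 0.00679). That call was lost without Malt1-WT replicate 2, where the adjusted p was 0.0899. Hist3h2a had 0.503, 0.549 and 0.409 CPM in Malt1-WT and 0.662, 0.933 and 0.796 CPM in the vector control. Its libraries did not overlap, but its log2 fold change of -0.70 (SE 0.42) did not pass the edgeR quasi-likelihood test, with an adjusted p of 0.150.

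Of 5 tested H2B genes, 4 were called lower, against 30.2% of all tested genes. Of these, Hist1h2bb did not reach the filter's level in all 3 Malt1-WT libraries, so the limit of the filter given above holds for it. Hist1h2bb had 0.392, 0 and 0.351 CPM in Malt1-WT and 0.994, 0.982 and 0.895 CPM in the vector control, with a log2 fold change of -1.98 (SE 0.52, edgeR quasi-likelihood adjusted p = 8.81e-04). Hist1h2bc had 1.79, 0.999 and 1.05 CPM in Malt1-WT and 2.65, 3.68 and 2.84 CPM in the vector control, with a log2 fold change of -1.26 (SE 0.26). Hist1h2be, the gene that overlaps Hist1h1e, had 0.839, 0.799 and 1.05 CPM in Malt1-WT and 2.48, 2.26 and 1.59 CPM in the vector control. Its log2 fold change was -1.23 (SE 0.31). Hist2h2be, an H2B gene on chromosome 3 known from mouse olfactory neurons, had 2.18, 1.997 and 1.05 CPM in Malt1-WT and 3.20, 3.14 and 4.18 CPM in the vector control. Its log2 fold change was -0.996 (SE 0.236), and no match to the stem-loop was found in its window. Hist1h2bg was the exception among H2B genes, at 1.06, 0.799 and 0.292 CPM in Malt1-WT and 1.33, 1.42 and 1.09 CPM in the vector control. Its log2 fold change of -0.82 (SE 0.37) missed the edgeR quasi-likelihood threshold, with an adjusted p of 0.0541.

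All 3 tested H3 genes were called lower, against 30.2% of all tested genes. None of them reached the filter's level in all 3 Malt1-WT libraries, so the limit of the filter given above holds for these calls. Hist1h3d had 0.615, 0.499 and 1.23 CPM in Malt1-WT and 2.21, 2.75 and 2.54 CPM in the vector control, a log2 fold change of -1.70 (SE 0.31, edgeR quasi-likelihood adjusted p = 5e-06). Hist1h3f had 0.895, 0.949 and 0.409 CPM in Malt1-WT and 2.93, 1.77 and 1.94 CPM in the vector control, a log2 fold change of -1.52 (SE 0.33). Hist1h3e, with 0.671, 0.599 and 0.409 CPM in Malt1-WT and 1.05, 1.03 and 1.04 CPM in the vector control, was a weak call. Its difference was -0.88 on the log2 scale (SE 0.39, edgeR quasi-likelihood adjusted p = 0.0464), and 9 of 13 alternative settings lost it.

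The 3 tested H4 genes were also called lower, against 30.2% of all tested genes, at levels below 1 CPM in both groups. They too did not reach the filter's level in all 3 Malt1-WT libraries, so the same limit holds. Hist1h4j had 0.168, 0.0499 and 0.234 CPM in Malt1-WT and 0.662, 0.638 and 0.895 CPM in the vector control. Its log2 fold change of -2.28 (SE 0.57, edgeR quasi-likelihood adjusted p = 5.19e-04) was the lowest among the tested Hist-prefixed genes, but rested on 8 counts in Malt1-WT and 43 in the vector control. Hist1h4d had 9 counts in Malt1-WT and 39 in the vector control (log2 fold change -1.98, SE 0.56). Hist1h4k had 14 counts in Malt1-WT and 36 in the vector control, with a log2 fold change of -1.25 (SE 0.53, edgeR quasi-likelihood adjusted p = 0.0364). That call was lost in 7 of 13 alternatives, and 53.4% of the 150-base windows of its exons occur in other annotated transcripts.

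**Figure D2:**
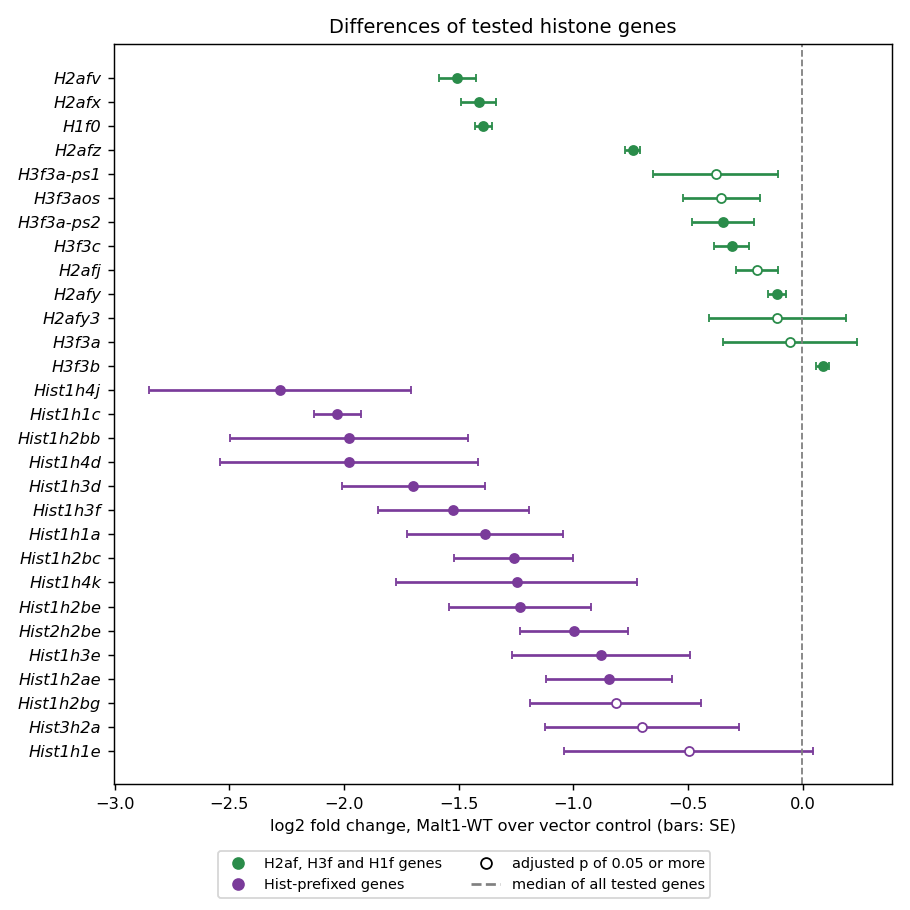
Log2 fold change of Malt1-WT over vector control for each tested histone gene, with bars for the SE and open circles for an adjusted p of 0.05 or more. H1foo, with 2 counts in all vector control libraries, is left out. The 16 Hist-prefixed genes run from -2.28 to -0.50, and H2afv, H2afx and H1f0 lie within that range while H3f3b lies just above 0.

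Summed over all 70 genes, Hist-prefixed transcripts were a small part of each library. The sums were 23.3, 21.8 and 20.3 CPM in Malt1-WT libraries, against 58.7, 66.5 and 61.3 CPM in vector control libraries. The mean was 21.8 ± 1.49 CPM in Malt1-WT and 62.2 ± 3.98 CPM in the vector control (SD, n = 3 each), which is 2.85-fold lower. Hist1h1c made up 31.01%, 38.7% and 28.5% of these counts in Malt1-WT and 44.6%, 48.9% and 47.9% in the vector control. Without it, the sum was 14.7 ± 1.34 CPM in Malt1-WT and 32.8 ± 1.09 CPM in the vector control (SD, n = 3 each), 2.24-fold lower. By histone, the summed level averaged 8.51 CPM in Malt1-WT and 32.3 CPM in the vector control for H1, and 2.44 CPM in Malt1-WT and 4.83 CPM in the vector control for H2A. For H2B it was 5.38 CPM in Malt1-WT and 12.6 CPM in the vector control. H3 summed to 3.07 CPM in Malt1-WT and 7.53 CPM in the vector control, and H4 to 2.39 CPM in Malt1-WT and 4.98 CPM in the vector control. Each of the 5 sums was lower in every Malt1-WT library than in every vector control library, and the H1 genes without Hist1h1c were 2.14-fold lower, within the 1.98-fold to 2.45-fold range of the core histones.

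**Figure D3:**
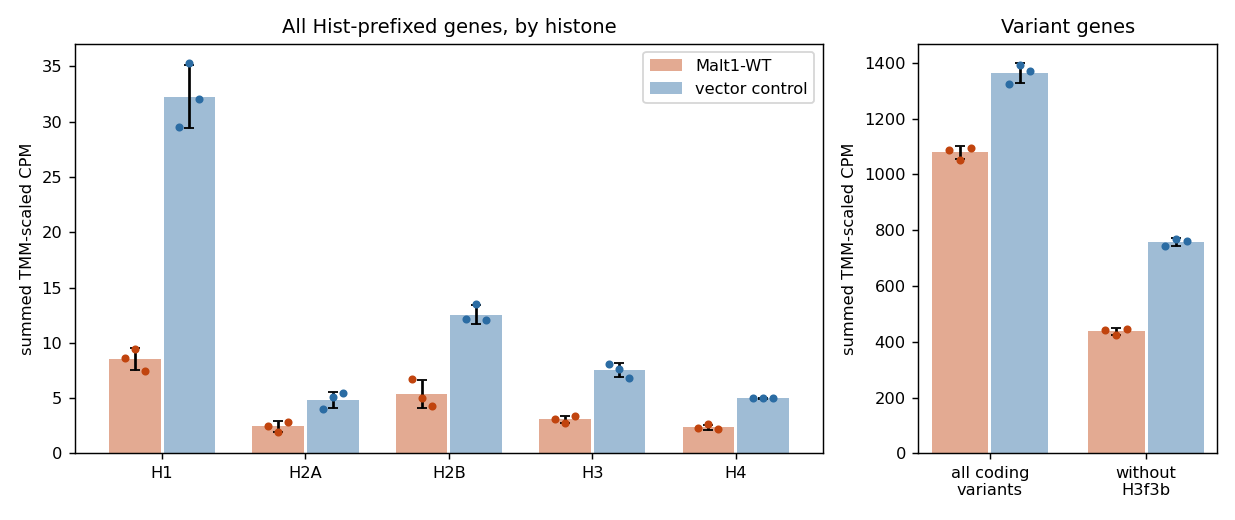
Summed TMM-scaled CPM of all Hist-prefixed genes by histone (left) and of protein-coding variants with and without H3f3b (right). Bars show the mean of 3 libraries with the SD, points show libraries, and Malt1-WT stands left of the vector control. No points of the groups overlap in any pair of bars, and the largest gap among the Hist-prefixed sums on the left is in H1.

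Only 16 of 70 Hist-prefixed genes could be tested, since the rest had few reads or none. Of the 54 with any count, 49 had a lower mean CPM in Malt1-WT, 90.7% against 48.4% of all entries with a count. Among the 38 with a count but no test, 33 were lower and 5 higher in mean CPM, and in 9 all 3 Malt1-WT libraries lay below all 3 vector control libraries. That is 23.7%, against 3.14% of entries with total counts in their range of 1 to 48. The shares are not matched on counts, as the median total was 16 for these genes and 5 for those entries, and fewer counts leave less room for the groups to separate. Among them the H2B gene Hist1h2bm had 1, 0 and 1 counts in Malt1-WT, against 4, 17 and 5 in the vector control, where replicate 2 held most of the reads. The pseudogene Hist3h2bb-ps had 0, 2 and 0 counts in Malt1-WT, against 2, 11 and 8 in the vector control. Hist2h2ac, an H2A gene, had 0 counts in Malt1-WT and 11 in the vector control, and Hist1h2ai had 5 counts in Malt1-WT and 20 in the vector control. The 5 with a higher mean in Malt1-WT were Hist1h2ao, Hist1h2bn, Hist1h3i, Hist1h4f and Hist3h2ba. Hist1h4f, an H4 gene, had the most counts of these, 17 in Malt1-WT and 9 in the vector control, and its libraries overlapped.

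**Figure D4:**
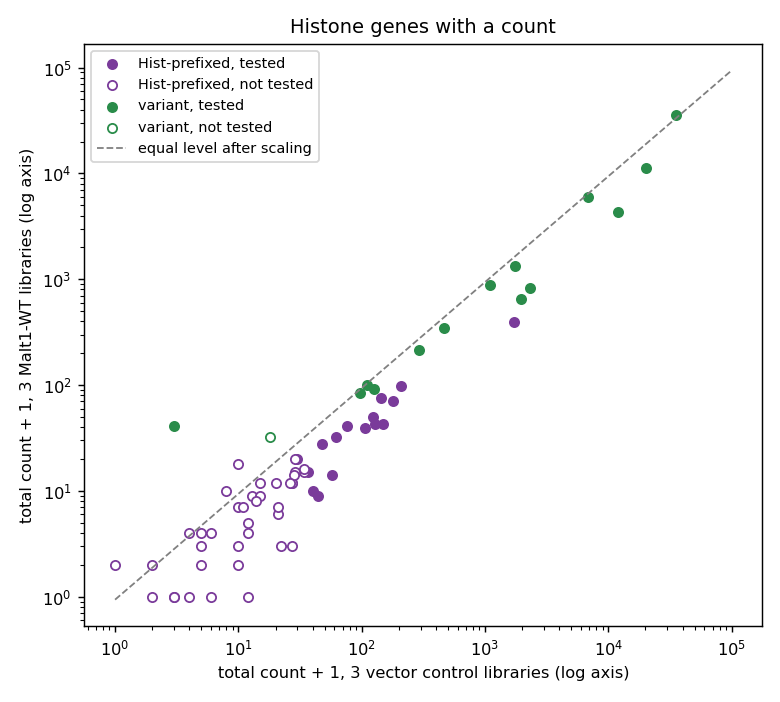
Total count plus 1 over the 3 Malt1-WT libraries against that over the 3 vector control libraries, both on log axes, for each histone gene with a count. Filled points were tested, and the dashed line marks equal levels after scaling. Most Hist-prefixed points lie below the line, tested or not, while the variants of highest count lie on or below it and H1foo stands far above it.

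A count of 0 says little about these genes, since many are near-identical. Of the 16 Hist-prefixed genes with 0 counts in every library, 12 share at least 50% of their 150-base windows with other annotated transcripts, against 12 of the 38 with a count but no test and 1 of the 16 tested. For 5 of them, Hist2h2aa1, Hist2h2aa2, Hist2h2bb, Hist2h3b and Hist2h3c1 on chromosome 3, the exons lie entirely within exons of other annotated genes. For Hist2h2aa2 and Hist2h3b this overlap is on the opposite strand only. The overlapping genes had few counts themselves. In Malt1-WT and the vector control, Gm20632 had 18 and 8, Gm20633 had 21 and 10, and Gm42743 had 5 and 2. Gm20634 had 1 and 0, and Gm20628 had 1 and 9. The sources used here do not give how reads that match several places or genes were counted. Where no such sharing occurs, as in the testis H2A gene Hist1h2aa, 0 counts over all 6 libraries allow up to 0.0264 CPM, for counting error only.

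On chromosome 13, 2 groups of neighbours hold 24 and 31 Hist-prefixed genes, at chr13:21715763-22043676 and chr13:23531050-23934851. Of the 14 tested genes on that chromosome, 12 were called lower, against 30.2% of all tested genes and with the limit of the filter given above, as was Hist2h2be, the 1 tested gene of the 10 on chromosome 3. Many H2A and H2B genes sit head to head and share the DNA between their starts. In 14 such pairs the starts were less than 500 bases apart. Both genes had counts in 8 pairs, and in 7 of these both totals, not scaled for depth, were lower in Malt1-WT. As 49 of the 54 Hist-prefixed genes with a count had a lower mean CPM, against 48.4% of all entries with a count, this does not show that paired genes move together. The pair Hist1h2ae and Hist1h2bg, with 176 bases between the starts, had 74 and 40 counts in Malt1-WT, against 143 and 75 in the vector control. In the exception, Hist1h2ak had 4 counts in Malt1-WT and 11 in the vector control, while Hist1h2bn had 3 in each group.

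Since members of both classes were lower together, their promoters were searched for letters of known cell cycle and histone promoter elements, in the 250 bases before the start on both strands. RefSeq promoter entries (GRCm38.p6) matched 77 of the 83 protein-coding members by symbol, 62 Hist-prefixed and 15 variants. CCAAT, the box bound by NF-Y, stood in 82.3% of the Hist-prefixed and 66.7% of the variant promoters, against 37.5% of all 27025. TATAAA stood in 46.8% of Hist-prefixed promoters, 6.7% of variants and 14.3% of all. The octamer ATTTGCAT, bound by Oct-1, stood in 22.6% of Hist-prefixed, 6.7% of variant and 1.8% of all promoters, and its Hist-prefixed matches were 7 of 18 H2A and 7 of 16 H2B genes. TTTGAA, the core of the CHR element, stood in 43.5% of Hist-prefixed, 13.3% of variant and 18.3% of all promoters. TTTGGCGC, the only spelling of the E2F site searched, stood in 0 of the members and 0.5% of all. Other spellings of that site were not searched, so this does not show that the members lack it. The 5 stretches below are the 150 bases before the start, with these letters in capitals on either strand. Hist1h2bg shows the DNA shared with Hist1h2ae, Hist1h2bb is a gene of large decrease, and the variants show H2afv and H2afz, which fell, beside H3f3b, which did not.

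Hist1h2bg, chr13:23571250-23571399, plus strand: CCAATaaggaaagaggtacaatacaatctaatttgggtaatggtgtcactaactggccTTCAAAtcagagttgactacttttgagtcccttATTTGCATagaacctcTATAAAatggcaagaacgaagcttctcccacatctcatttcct
Hist1h2bb, chr13:23746584-23746733, plus strand: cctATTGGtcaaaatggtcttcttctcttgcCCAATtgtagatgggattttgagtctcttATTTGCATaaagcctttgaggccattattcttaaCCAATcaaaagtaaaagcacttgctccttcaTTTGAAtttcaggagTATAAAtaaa
H2afv, chr11:6444444-6444593, minus strand: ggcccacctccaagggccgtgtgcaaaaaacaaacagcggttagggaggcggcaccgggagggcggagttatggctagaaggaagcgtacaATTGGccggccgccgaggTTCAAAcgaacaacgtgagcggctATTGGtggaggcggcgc
H2afz, chr3:137864337-137864486, plus strand: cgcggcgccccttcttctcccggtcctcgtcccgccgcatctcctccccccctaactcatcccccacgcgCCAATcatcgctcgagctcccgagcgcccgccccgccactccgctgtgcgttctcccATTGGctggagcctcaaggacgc
H3f3b, chr11:116024505-116024654, minus strand: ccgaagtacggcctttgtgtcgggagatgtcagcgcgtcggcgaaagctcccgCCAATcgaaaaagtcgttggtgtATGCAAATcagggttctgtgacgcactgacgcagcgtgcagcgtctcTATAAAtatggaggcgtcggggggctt

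The stretches of Hist1h2bg, Hist1h2bb and H3f3b each hold a CCAAT box, an octamer and TATAAA, although H3f3b was not lower in Malt1-WT. H2afv and H2afz hold CCAAT boxes but neither of the other two. H3f3b is the 1 variant promoter with TATAAA or the octamer. These matches are letters in a window, not measured binding.

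Variant histones did not move as 1 group. Of the 22 variant entries, 7 were at 0 in all libraries, among them the testis genes H1fnt and H2bfm and the linker variant gene H1fx. Other annotated transcripts share only 6.0% of the sequence windows of H1fx, and why it had 0 counts was not tested. The variant sums and the share within H1 given below therefore hold no reads of H1fx. H2afy2, a macroH2A gene, was not tested at 31 counts in Malt1-WT and 17 in the vector control. Of the 14 tested entries, 7 were called lower, 2 higher and 5 neither, and the median log2 fold change was -0.33. Of the 9 protein-coding ones, 5 were lower, against 30.2% of all tested genes, and 2 higher, against 31.0%. The 2 were H3f3b and H1foo, and H1foo passed the filter only through Malt1-WT, which favours a higher level there.

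The linker variant H1f0 (chr15:79028450-79030504, plus strand), known to accumulate in non-dividing and differentiated cells, had 80.9, 75.9 and 77.8 CPM in Malt1-WT and 196, 208 and 212 CPM in the vector control. It fell by 1.39 on the log2 scale (SE 0.04, edgeR quasi-likelihood adjusted p = 1.66e-34). H1foo, the linker histone of oocytes, had 16, 13 and 11 counts in Malt1-WT, against 1, 1 and 0 in the vector control. Its levels were below 1 CPM in every library, it passed the filter only through Malt1-WT, and the ratio of the group totals was 21.3 with a 95% counting interval of 5.52 to 182 (edgeR quasi-likelihood adjusted p = 3.75e-06).

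Among H2A variants, the H2A.Z genes were lower. H2afz (chr3:137864487-137866922, plus strand) had 205, 197 and 213 CPM in Malt1-WT and 333, 352 and 341 CPM in the vector control, with a log2 fold change of -0.74 (SE 0.03, edgeR quasi-likelihood adjusted p = 6.88e-26). H2afv (chr11:6427229-6444443, minus strand), the other gene for H2A.Z, had 11.1, 11.8 and 12.3 CPM in Malt1-WT and 32.5, 34.4 and 33.1 CPM in the vector control. Its log2 fold change of -1.51 (SE 0.08, edgeR quasi-likelihood adjusted p = 1.51e-22) was the lowest among the variants. H2afx (chr9:44334694-44336077, plus strand), whose product is phosphorylated at DNA breaks, had 16.1, 13.6 and 15.03 CPM in Malt1-WT and 38.2, 40.8 and 39.8 CPM in the vector control. It fell by 1.41 on the log2 scale (SE 0.08, edgeR quasi-likelihood adjusted p = 1.29e-22), and it is the 1 tested variant with the stem-loop. All 3 stood clearly apart between the groups.

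The macroH2A gene H2afy, linked to silent chromatin, had 110, 107 and 108 CPM in Malt1-WT and 121, 115 and 114 CPM in the vector control. The groups did not overlap, but the log2 fold change was only -0.11 (SE 0.04, edgeR quasi-likelihood adjusted p = 0.0109), and the adjusted p was 0.0613 without vector control replicate 1. H2afj had 17.1, 14.8 and 16.8 CPM in Malt1-WT and 19.3, 16.8 and 19.7 CPM in the vector control. Its groups overlapped, and its log2 fold change of -0.20 (SE 0.09) missed the edgeR quasi-likelihood threshold at an adjusted p of 0.0504, while 8 of 13 alternatives called it lower. The pseudogene H2afy3, which lies opposite to Pvt1, had 1.01, 1.75 and 1.81 CPM in Malt1-WT and 2.21, 1.28 and 1.49 CPM in the vector control, with overlapping groups.

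H3f3b (chr11:116021912-116027962, minus strand), which encodes the replacement histone of H3, was the most abundant histone gene. It had 645, 630 and 650 CPM in Malt1-WT, against 580, 622 and 611 CPM in the vector control. It rose by 0.09 on the log2 scale (SE 0.03, edgeR quasi-likelihood adjusted p = 0.00668), a small increase that was lost with scaling by library size only (0.01, adjusted p = 0.757). It was also lost when Malt1-WT replicate 3 was left out (adjusted p = 0.0642) and when vector control replicate 1 was (adjusted p = 0.127). H3f3a, which encodes the same protein, had only 2.35, 1.95 and 1.05 CPM in Malt1-WT and 2.15, 2.41 and 1.04 CPM in the vector control. Its groups overlapped, with a difference of -0.06 on the log2 scale (SE 0.29, edgeR quasi-likelihood adjusted p = 0.886).

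Some reads of H3f3a can be lost to or shared with its processed copies, which limits what its count means. Other annotated transcripts hold 16.3% of the 150-base windows of H3f3a, so most of its windows are not shared. H3f3c, annotated as a processed pseudogene, shares 48.5% of its 150-base windows with other transcripts, H3f3a among them, and had more counts than H3f3a. It had 24.9, 24.9 and 22.0 CPM in Malt1-WT and 26.5, 32.4 and 30.1 CPM in the vector control, a log2 fold change of -0.31 (SE 0.08, edgeR quasi-likelihood adjusted p = 3.89e-04). H3f3a-ps2 had 5.93, 6.54 and 6.32 CPM in Malt1-WT and 6.46, 8.69 and 8.65 CPM in the vector control. Its groups overlapped, and its call (-0.35 on the log2 scale, SE 0.14, edgeR quasi-likelihood adjusted p = 0.0245) was lost in 4 of 13 alternatives. H3f3a-ps1 averaged 1.61 ± 0.602 CPM in Malt1-WT and 2.12 ± 0.247 CPM in the vector control (SD, n = 3 each) and was not called, nor was the antisense transcript H3f3aos, at 3.86 ± 0.638 CPM in Malt1-WT and 4.97 ± 0.582 CPM in the vector control. The exons of H3f3a, on the opposite strand, cover 5.3% of the exon bases of H3f3aos. Without a known strand setting, reads of the 2 genes cannot be told apart in that part. H3f3a and its 3 copies summed to 35.0, 35.5 and 30.3 CPM in Malt1-WT, against 37.3, 45.8 and 41.6 CPM in the vector control. Gm10257, which also shares windows with H3f3a, was not in this sum. It had 557 counts in Malt1-WT and 766 in the vector control.

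The protein-coding variants summed to 1079 ± 22.4 CPM in Malt1-WT and 1362 ± 35.8 CPM in the vector control (SD, n = 3 each), a log2 ratio of -0.34. Without H3f3b, the sum was 437 ± 11.7 CPM in Malt1-WT and 758 ± 14.1 CPM in the vector control, a log2 ratio of -0.79, against -1.51 for the Hist-prefixed sum. The share of Hist-prefixed counts in all histone counts (Hist-prefixed plus protein-coding variants) was 2.09%, 2.03% and 1.82% in Malt1-WT and 4.25%, 4.56% and 4.28% in the vector control. Per length of the annotated exons, this share was 5.03%, 4.83% and 4.92% in Malt1-WT and 8.60%, 9.43% and 8.68% in the vector control, so it was lower in every Malt1-WT library on both scales. Within H3 the Hist-prefixed share was 0.473%, 0.433% and 0.518% in Malt1-WT and 1.38%, 1.21% and 1.10% in the vector control. Within H1 it was 9.53%, 10.98% and 8.71% in Malt1-WT and 13.1%, 14.5% and 13.2% in the vector control. Within H2A the groups overlapped, with 0.696%, 0.561% and 0.779% in Malt1-WT and 0.725%, 0.904% and 0.979% in the vector control. Per kilobase of exon, H3f3b averaged 216 CPM in Malt1-WT and 203 CPM in the vector control, H2afz 115 CPM per kilobase in Malt1-WT and 193 in the vector control, and Hist1h1c 4.58 CPM per kilobase in Malt1-WT and 18.8 in the vector control.

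Genes that make and process replication-dependent histone mRNA were mostly called lower too. Of 19 such genes, all tested, 14 were called lower, against 30.2% of all tested genes, and 1 higher, against 31.0%, with a median log2 fold change of -0.30. Slbp, the stem-loop binding protein, averaged 59.4 ± 1.89 CPM in Malt1-WT and 91.5 ± 4.28 CPM in the vector control (SD, n = 3 each), a log2 fold change of -0.62 (SE 0.05, edgeR quasi-likelihood adjusted p = 7.57e-17). Zfp473, a zinc finger protein of the histone 3′ end complex, fell by 0.865 on the log2 scale, Ccne1, the cyclin partner of Cdk2, by 0.69 and the cap-binding subunit gene Ncbp2 by 0.67. Npat, the coactivator of histone gene transcription, was added after its value was seen, with 63.5 ± 4.07 CPM in Malt1-WT and 79.4 ± 3.77 CPM in the vector control (SD, n = 3 each). The exception that rose was Cstf2, a cleavage stimulation factor, with a log2 fold change of 0.52.

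Of 27 genes of histone chaperones and deposition factors, all tested, 18 were called lower, against 30.2% of all tested genes, 4 higher, against 31.0%, and 5 neither, with a median log2 fold change of -0.22. The H3-H4 chaperone gene Asf1b averaged 36.5 ± 1.54 CPM in Malt1-WT and 74.9 ± 1.10 CPM in the vector control (SD, n = 3 each), a log2 fold change of -1.04. Chaf1a, the large subunit of the replication-coupled assembly factor CAF-1, fell by 1.00 on the log2 scale, Mms22l, a partner of Tonsl at replication forks, by 0.98 and the H3-H4 chaperone gene Nasp by 0.86. The 4 that rose, named after their values were seen, were Nap1l4 (log2 fold change 0.52), Daxx (0.42), which deposits replacement H3 with Atrx, Vps72 (0.17), of the H2A.Z exchange complexes, and Ubn2 (0.17), of the HIRA complex.

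All 22 genes of DNA replication and nucleotide supply in S phase were called lower, against 30.2% of all tested genes. Their log2 fold changes had a median of -0.82 and a range of -1.65 to -0.31. The thymidine kinase gene Tk1 averaged 41.8 ± 2.07 CPM in Malt1-WT and 131 ± 6.24 CPM in the vector control (SD, n = 3 each). The ribonucleotide reductase genes Rrm2 and Rrm1 fell by 1.47 and 1.19 on the log2 scale, and the DNA ligase gene Lig1 by 1.12. Cenpa, the H3 variant of centromeres, which is loaded outside S phase and lies outside the symbol rule, averaged 58.8 ± 0.406 CPM in Malt1-WT and 194 ± 4.52 CPM in the vector control (SD, n = 3 each), a log2 fold change of -1.72 (SE 0.04, edgeR quasi-likelihood adjusted p = 2.66e-38). That value is close to the -1.70 of Hist1h3d.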

How the data were processed

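Paired-end RNA-seq was done on total RNA from 6 libraries, prepared with a directional kit, per the labels' protocols. The submitters' processing notes name trimming by Trim Galore 0.6.0, the aligner STAR 2.7.3a, the counter featureCounts 1.6.3 and build GRCm38.p6 (mm10). The sources used here do not give the annotation, the strand setting or the treatment of reads with several matches. The authors deposited raw counts per gene symbol, 1 column per library, per the file headers. Groups were taken from the titles. Nothing says that libraries came from separate cultures, so p-values measure only how these samples varied, possibly for technical reasons.

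The counts were tested with edgeR 4.0.16 (R 4.3.3): filterByExpr by group with a minimum count of 10, TMM scaling, robust quasi-likelihood fit without a block, and Benjamini-Hochberg adjustment over 13594 genes. Alternatives were RLE, upper quartile and library size scaling, DESeq2 1.42.0, no filter, at least 1 CPM in 3 libraries, a replicate block and leaving out each library. Annotation came from GENCODE M21 and promoters from RefSeq (GRCm38.p6). Intervals cover counting error only.

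The members, the gene lists and the tests were chosen with earlier results of these data known. The naming rule took every tested variant, the 8 most abundant tested Hist-prefixed genes, the 6 called ones of largest change, those not called lower, up to 4 called genes of largest change per list, Cenpa and Malt1. Other genes were named after their values were seen, among them Hist1h3e, Hist1h4k and the untested genes.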

Additional observations from a re-analysis of the deposited data

How the results depend on the processing

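The direction of the Hist-prefixed median and sum was the same in every alternative run, with 10 to 14 genes called lower and 0 higher. With scaling by library size only, the variant median log2 fold change was -0.40, the log2 ratio of the variant sum -0.41 and the number of variants called higher 1, as it also was under the stricter filter. Leaving out each library gave variant medians of -0.37 to -0.25, and 1 to 2 variants called higher. Without Hist1h1c the Hist-prefixed sum had a log2 ratio of -1.16, and without H3f3b the protein-coding variant sum one of -0.79, both chosen after seeing the data. Of 42 named genes under 13 alternatives, 511 results were the same, 15 newly passed the threshold, 9 lost it and 5 changed sign. The remaining results had no value, as H1foo, Hist1h1e, Hist1h2bb, Hist1h4d, Hist1h4j and Hist3h2a did not pass the stricter filter. Hist1h3e and Hist1h4k, outside that tally, lost their calls in 9 and 7 alternatives. The sign changes, in genes that never passed, were in H2afy3, at -0.27 to 0.13 across left-out libraries, and H3f3a, at -0.35 to 0.19. The causes were not tested. Same-numbered libraries did not vary together (r = -0.026, -0.021 and 0.017), so the main fit used no pairing. These values cannot tell whether such libraries were prepared together. With the replicate block, 8168 of all genes, 13 Hist-prefixed genes (lower) and 10 variants (8 lower, 2 higher) were called. Counts were low for the Hist-prefixed genes: 12 of the 16 tested averaged below 1 CPM in Malt1-WT, and 38 with a count could not be tested.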
